A study of Mus musculus with 12 samples.

Results

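S100 proteins are small calcium-binding proteins, and the expression of 10 of their genes was followed in mouse keratinocyte cultures: *S100a3*, *S100a4*, *S100a6*, *S100a8*, *S100a9*, *S100a10*, *S100a11*, *S100a13*, *S100a14* and *S100a16*. They were taken by gene name from the 21947 loci of the count table, leaving out 1828 rows that join several genes with a comma, and all 10 passed the filter on low counts. The RNA-seq data came from primary keratinocytes of neonatal BALB/c mice, grown at 0.05 mM calcium and brought to 0.12 mM to induce differentiation, with RNA taken 48 hours after transfection. All groups share this strain, medium and calcium step. The siSbsn cultures received 75 pmol of a pool of siRNAs against *Sbsn*, the gene of suprabasin, a secreted protein of differentiating epidermis, and the siControl cultures received a non-targeting pool. Batch 1 had 2 libraries each without siRNA, with siControl and with siSbsn, and batch 2 had 3 libraries each with siControl and siSbsn, so that the no siRNA condition exists in batch 1 only.

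S100 proteins carry a pair of EF-hand loops and work mostly as dimers. When calcium binds, most of them open a surface that grips a partner, such as an annexin or a myosin chain, and some are also secreted and act on receptors of other cells. Many of their genes lie in the epidermal differentiation complex, the same chromosome region that holds the genes of the cornified envelope. In skin, S100A8 and S100A9 are known as alarmins that keratinocytes make in inflamed or wounded epidermis, and their heterodimer, calprotectin, binds zinc and manganese.

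All 10 genes were on chromosome 3 of mm10. The first 8 lay within 181287 bases, from *S100a13* at its start to *S100a9* at its end (chr3:90514435-90695721), and *S100a11* and *S100a10* lay together within 44150 bases further along (chr3:93520496-93564645). *S100a9* was the member on the minus strand, and the other 9 were on the plus strand. Their longest coding transcripts were short, from 486 bases for *S100a8* to 1127 bases for *S100a16*. Over the loci tested, the longest transcript of any type, a wider measure, had a median of 3476 bases. The rows of *S100a3* and *S100a4* overlap the predicted gene *Gm42674* on the same strand, and since the strand setting of the counting was not found in the labels or methods, reads of that gene and theirs cannot be told apart.

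The promoters of *S100a8*, *S100a9* and *S100a4* are shown because these genes had the largest differences between the batches. Each sequence is the 250 bases before the RefSeq start (GRCm38.p6), read 5′ to 3′ on the strand of the gene, with matches to 3 motifs in capitals. The intervals are chr3:90668821-90669070 for *S100a8* (plus strand), chr3:90695722-90695971 for *S100a9* (minus strand) and chr3:90603520-90603769 for *S100a4* (plus strand).
S100a8: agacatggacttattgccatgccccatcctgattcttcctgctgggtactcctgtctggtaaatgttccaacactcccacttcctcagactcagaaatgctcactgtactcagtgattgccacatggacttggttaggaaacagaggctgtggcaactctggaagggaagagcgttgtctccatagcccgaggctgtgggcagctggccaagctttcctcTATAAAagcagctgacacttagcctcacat
S100a9: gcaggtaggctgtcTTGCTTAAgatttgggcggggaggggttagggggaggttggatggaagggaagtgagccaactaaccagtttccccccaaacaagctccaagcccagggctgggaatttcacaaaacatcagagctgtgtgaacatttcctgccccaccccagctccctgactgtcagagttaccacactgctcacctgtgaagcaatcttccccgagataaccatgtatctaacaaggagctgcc
S100a4: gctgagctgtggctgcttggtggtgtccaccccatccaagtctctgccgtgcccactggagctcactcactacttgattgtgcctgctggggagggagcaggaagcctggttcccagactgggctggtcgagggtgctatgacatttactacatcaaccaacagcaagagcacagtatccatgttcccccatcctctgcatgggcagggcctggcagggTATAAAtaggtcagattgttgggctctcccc
The motifs searched on both strands were TGANTCA for AP-1, TTGCNNAA for C/EBP and TATAAA for the TATA box, and no matches overlapped in these 3 windows. The TATA letters began 30 bases before the start in *S100a8* and 31 bases before it in *S100a4*, and 12.4% of all 32851 promoters in the table held them. The C/EBP letters began 236 bases before the start in *S100a9*, against 9.56% of all promoters with a match. The AP-1 letters occurred in none of the 3 windows and in 6.75% of all promoters. Among the 8 members with a promoter in the table, 2 held the AP-1 letters: *S100a11*, 136 and 38 bases before its start, and *S100a16*, at base -192 from 1 of its 2 starts. These matches are a description of letters in a window and were not tested for binding.

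The libraries held 27934836 to 49553923 counts, and the 10 genes took 0.261% to 0.688% of them. Levels are given as CPM, counts scaled to a TMM-normalised library size, and log2-fold changes are from edgeR, with a locus called when the size exceeded 0.5 and the Benjamini-Hochberg q-value was below 0.05. *Sbsn* itself was at 332 to 459 CPM in siControl and 121 to 125 CPM in siSbsn of batch 2. In batch 1 it was at 1189 and 1356 CPM in siControl, but at 1965 CPM in the library labelled siSbsn batch 1 replicate 1 and 696 CPM in siSbsn batch 1 replicate 2. The first of these siSbsn libraries therefore went against its label, and directions in batch 1 rest in part on it. The keratinocyte markers *Krt5* and *Krt14* were at 6489 to 17986 CPM and 9607 to 28816 CPM. Nothing in the sources says that the libraries of a group came from separate cultures or animals beyond the word triplicates, so the p-values measure the spread between these libraries. In bulk RNA, fewer cells of a type and less RNA per cell cannot be told apart.

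The S100 genes fell into a high and a low set by level. Per kilobase of the longest coding transcript, the median over 12 libraries was 1466 CPM for *S100a11*, 1048 for *S100a10*, 955 for *S100a6*, 431 for *S100a14* and 378 for *S100a16*, then 65.4 for *S100a4*, 25.9 for *S100a9*, 11 for *S100a8*, 10.4 for *S100a3* and 4.56 for *S100a13*. The lowest library of *S100a16* was above the highest library of *S100a4*, and this was the only step in the order at which the ranges of neighbours did not overlap. Within libraries, *S100a11* was above *S100a10* in 12 of 12, *S100a6* was above *S100a14* in 12 of 12, *S100a4* above *S100a9* in 12 of 12, *S100a9* above *S100a8* in 12 of 12 and *S100a3* above *S100a13* in 12 of 12. The order of the other neighbours changed between libraries, with *S100a10* above *S100a6* in 6 of 12, *S100a14* above *S100a16* in 8 of 12 and *S100a8* above *S100a3* in 5 of 12. *S100a11*, *S100a10* and *S100a6* stood at the 99.3, 99.1 and 99.2 percentile of the mean CPM over 13562 loci, while *S100a8* stood at 31.1 and *S100a13* at 25.8.

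**Figure D1:**
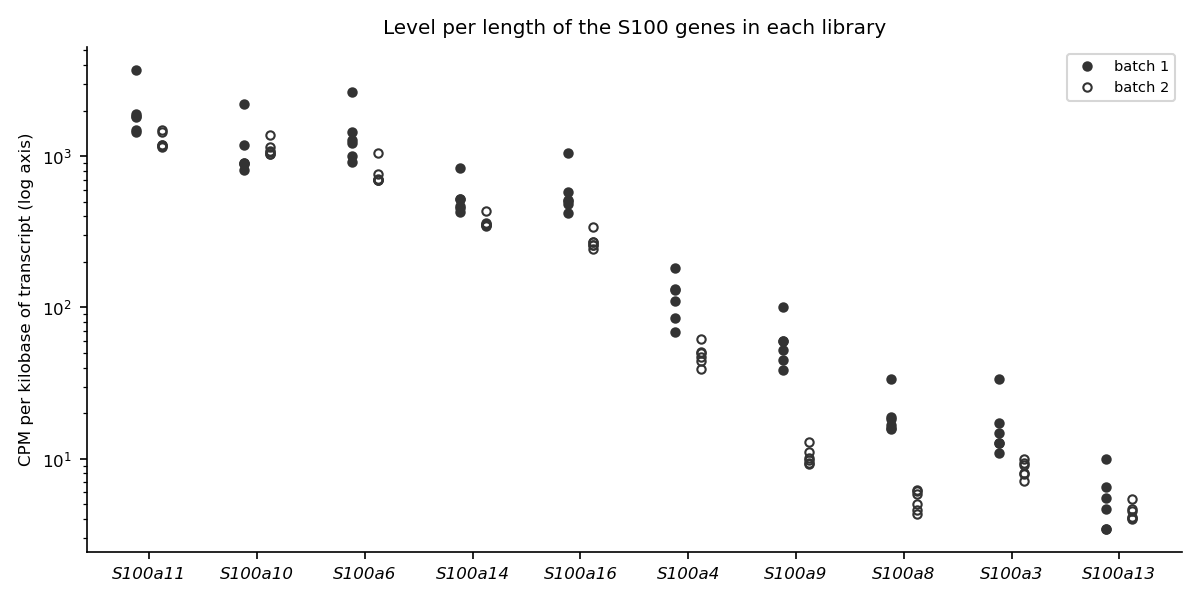
CPM per kilobase of the longest coding transcript (log axis) of the 10 S100 genes, ordered by median, in each of 6 libraries of batch 1 (filled) and 6 of batch 2 (open). The gap between *S100a16* and *S100a4* separates 5 high from 5 low genes, and *S100a9* and *S100a8* show the widest distance between the batches.

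*S100a8* and *S100a9*, the alarmin pair, were the genes with the largest difference between batches. *S100a8* was at 8.18 and 8.93 CPM without siRNA, 16.4 and 9.23 CPM in siControl and 7.67 and 7.76 CPM in siSbsn of batch 1, and at 2.85, 2.09 and 2.96 CPM in siControl and 2.21, 3 and 2.44 CPM in siSbsn of batch 2. *S100a9* was at 31.3 and 23.1 CPM without siRNA, 52.6 and 27.3 CPM in siControl and 31.1 and 20.1 CPM in siSbsn of batch 1, and at 4.86, 5.12 and 6.76 CPM in siControl and 5.69, 4.77 and 5.26 CPM in siSbsn of batch 2. Every library of batch 2 was below every library of batch 1 for both genes. In counts, *S100a8* had 83 to 455 reads a library and *S100a9* had 138 to 1460.

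The level of *S100a9* relative to *S100a8* had a lower median in batch 2. Per length, *S100a9* was 2.43 to 3.79 times as high as *S100a8* in batch 1 (median 2.88, n = 6) and 1.49 to 2.41 times as high in batch 2 (median 2.08, n = 6). These ranges nearly touched, at 2.43 and 2.41. The batch 2 ratios rest on 83 to 114 *S100a8* reads a library, and counting noise was not weighed. The ratio of *S100a11* to *S100a10* did not overlap between the batches, with 1.56 to 2.13 in batch 1 and 1.08 to 1.25 in batch 2. For *S100a16* over *S100a14* the ratio was 0.978 to 1.27 in batch 1 and 0.703 to 0.778 in batch 2. No test was run on these ratios.

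The comparison of batch 2 with batch 1, over the 10 siControl and siSbsn libraries with treatment in the model, called 8 of the 10 S100 genes lower in batch 2 and none higher. Over all 12857 loci tested, 21.3% were called lower and 16.4% higher. The median log2-fold change of the 10 genes was -1.08, against -0.022 over all loci. Loci with a longest transcript of up to 1127 bases had a median of -0.50, and 80.6% of them were below 0. *S100a9* was 5.96-fold lower, at -2.58 on the log2 scale (standard error 0.21, edgeR q = 1.15e-05), and *S100a8* was 3.89-fold lower, at -1.96 (standard error 0.20, edgeR q = 4.54e-05). *S100a4*, *S100a16*, *S100a3* and *S100a6* followed at -1.33, -1.26, -1.13 and -1.02 (edgeR q = 0.000312, 0.000452, 0.00353 and 0.00314). *S100a11* was at -0.78 and *S100a14* at -0.66 (edgeR q = 0.0106 and 0.00288). *S100a13*, at -0.44 (standard error 0.24, q = 0.139), and *S100a10*, at -0.12 (standard error 0.21, q = 0.649), did not pass the edgeR test.

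In 5 genes, *S100a3*, *S100a4*, *S100a8*, *S100a9* and *S100a16*, all 6 batch 2 libraries were below all 6 batch 1 libraries, those without siRNA included, which held for 16.4% of the loci tested. The calls depended on gene length and on a library. With the trend of each library on gene length removed, 6 of the 10 genes were called lower, against 19.3% of loci, with *S100a9* at -2.05, *S100a8* at -1.46, *S100a3* at -1.06, *S100a16* at -0.87, *S100a4* at -0.82 and *S100a6* at -0.55. *S100a11* was then at -0.25 and *S100a14* at -0.39, and *S100a10* and *S100a13* turned to 0.36 and 0.051. The trend used the longest transcript of any type under a gene name, not the coding transcript. *S100a3* and *S100a13* have coding transcripts of 712 and 715 bases, yet *S100a3* moved only from -1.13 and *S100a13* from -0.44. For *S100a3* the value cannot be read as corrected at its coding length. Without siControl batch 1 replicate 1, the same 6 genes were called and the median was -0.71, with *S100a11* at -0.45, *S100a14* at -0.46 and *S100a10* at 0.20. Leaving out the library labelled siSbsn batch 1 replicate 1 gave 8 calls and a median of -1.03, and leaving out siSbsn batch 1 replicate 2 gave 9 calls, with *S100a13* added at -0.64. Over the 10 fits with a library left out, 2340 to 2965 of all loci were called lower in batch 2.

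**Figure D2:**
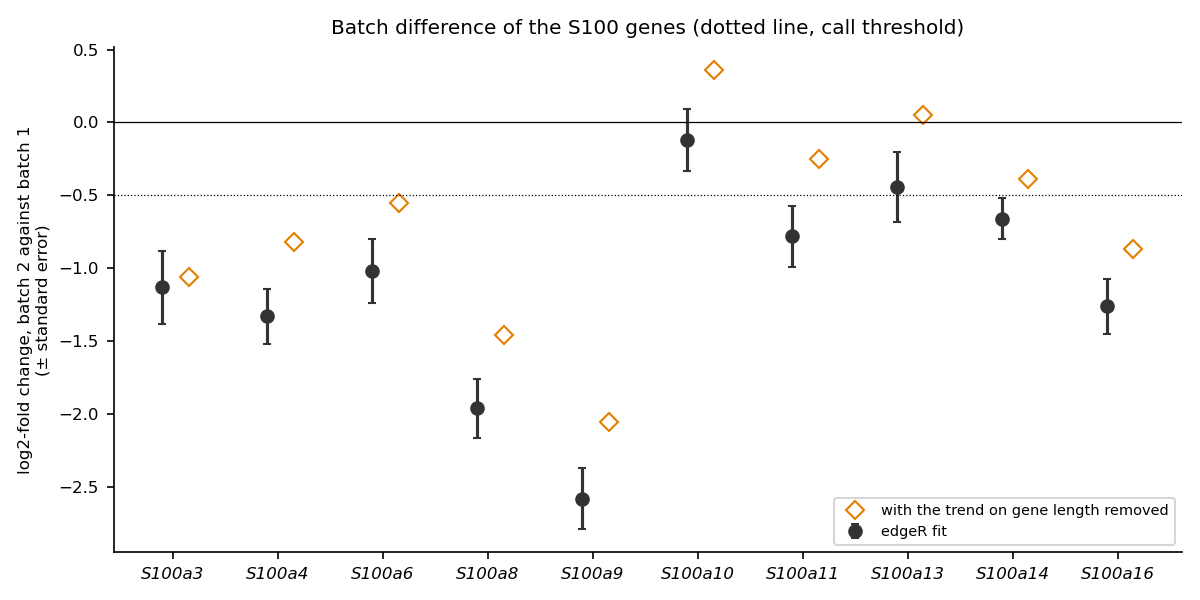
Log2-fold change of batch 2 against batch 1 for the 10 S100 genes, from edgeR with its standard error (filled circles) and after the length trend was removed (open diamonds), over 10 libraries. *S100a9* at -2.58 and *S100a8* at -1.96 lie lowest in both, and *S100a10* lies at -0.12 and, with the trend removed, at 0.36.

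Neutrophils and other myeloid cells also make S100A8 and S100A9, so the myeloid markers were read beside them. The summed level of 12 myeloid genes was 11.8 to 24.1 CPM in batch 1 and 7.33 to 9.33 CPM in batch 2. All 5 that could be tested were called lower in batch 2, where 21.3% of all loci were called lower and 16.4% higher. *Csf1r*, the receptor of a macrophage growth factor, was at -1.70 and *Lyz2*, the gene of a lysozyme, at -1.25 (edgeR q = 0.00034 and 0.0138). *Cd68* was at -0.52 (edgeR q = 0.00585). With the length trend removed, *Csf1r*, *Lyz2* and *Cd68* were at -1.81, -0.93 and -0.19. The genes that define neutrophils were near 0, with *Retnlg* at 0 in all 12 libraries, *Ly6g* at 0 in 11, *Mpo* at 0 in 10 and *Elane* at 0 in 9 libraries and at most 1 read in the others. *Csf3r*, the neutrophil growth factor receptor, had at most 10 reads a library. The myeloid sum in siControl batch 1 replicate 1, the highest library for *S100a8* and *S100a9*, was 14.2 CPM, inside the range of batch 1. Among keratinocyte markers, *Krt5*, *Krt14* and *Perp* were called lower in batch 2 (-0.93, -0.84 and -0.73) and *Krt10* higher (0.99), and the summed level of the 8 was 28212 to 54172 CPM in batch 1 and 21971 to 27430 CPM in batch 2. The part of these markers in the S100 differences was not tested.

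siControl batch 1 replicate 1 was the highest of all 12 libraries for each of the 10 S100 genes, a position that 29.6% of the loci tested shared. *S100a10* was at 1510 CPM there and at 554 to 952 CPM in the other 11 libraries. *S100a16* was at 1190 CPM there, while its other batch 1 libraries lay between 472 and 655 CPM. *S100a6* and *S100a11* reached 1948 and 1896 CPM in this library against 888 and 946 CPM in siControl batch 1 replicate 2. Relative to their mean over the 12 libraries on the log2(CPM + 0.5) scale, the S100 genes were higher by a median of 1.35 in siControl batch 1 replicate 1, with a range of 0.92 to 2.0, and all loci of like length were higher by 0.85 there. Medians in the other batch 1 libraries ranged from -0.05 to 0.53 and in batch 2 from -0.53 to -0.14, and the length trend in those 11 libraries ranged from -0.24 to 0.12.

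**Figure D3:**
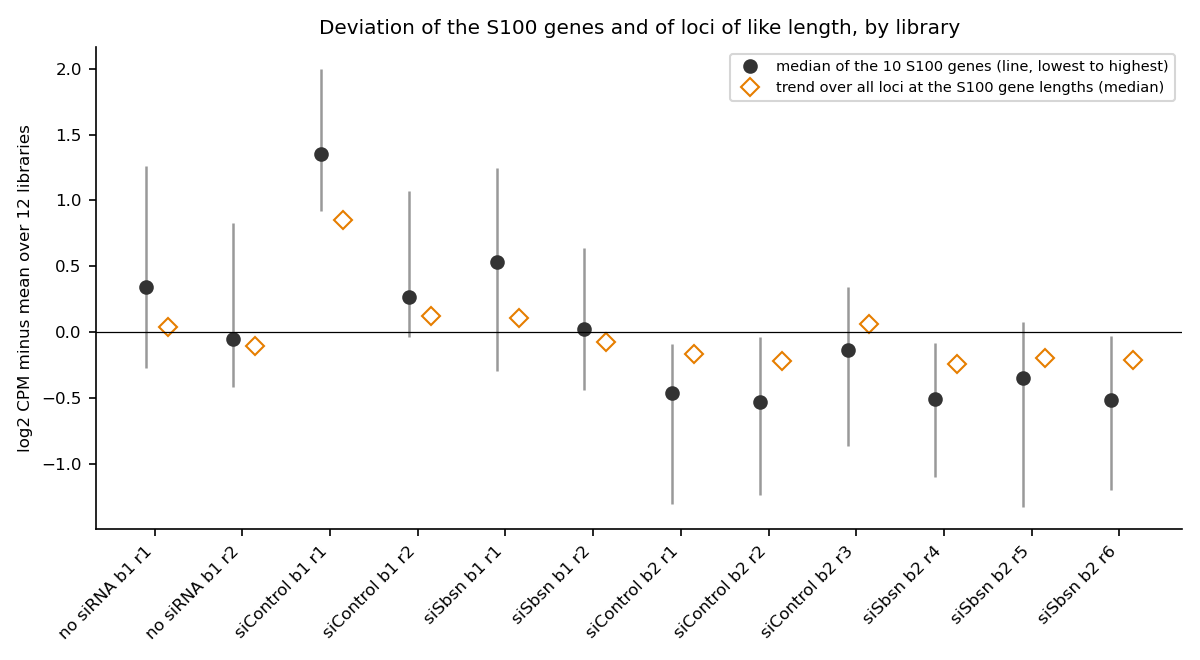
Deviation of log2(CPM + 0.5) from the mean over 12 libraries, as the median of the 10 S100 genes with the lowest and highest gene (circles, lines) and as the trend of all loci on transcript length at the S100 lengths (diamonds). Both are highest in siControl batch 1 replicate 1, at 1.35 and 0.85.

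Whether *Sbsn* siRNA changed the S100 genes was asked with siSbsn against siControl over both batches, with batch in the model. None of the 10 S100 genes was called, and edgeR called 0% of 12857 loci. *Sbsn*, the target of the siRNA, was itself not called in this comparison, at -0.96, and it was at 0.029 in batch 1 alone. The comparison over both batches is therefore a limited test of the knockdown. In edgeR 2464 loci had an unadjusted p under 0.05, and none of the 10 was among them. DESeq2's Wald test called 51 loci higher and 42 lower and none of the 10, and limma-voom called 0 loci. *S100a7a*, which is not among the 10, had a DESeq2 q of 0.0214. All 10 genes had log2-fold changes below 0, from -0.45 for *S100a10* (standard error 0.21, edgeR q = 0.263) to -0.23 for *S100a14* (standard error 0.14, edgeR q = 0.319). Their median was -0.31, against 0.0055 over all loci, of which 49.3% were below 0. The standard errors of the 10 genes ranged from 0.14 to 0.25, so differences of this size were not separable from the spread between libraries.

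The same direction was common among loci with short transcripts. Of the 705 tested loci whose longest transcript had up to 1127 bases, 89.2% were below 0 in this comparison with a median of -0.32, against 47% and a median of 0.022 over the 11576 longer loci. With the length trend removed, 6 of the 10 S100 genes were below 0, against 48.1% of all loci, and their median was -0.018. *S100a3* was then at -0.24, *S100a10* at -0.13 and *S100a4* at -0.086, while *S100a9*, *S100a11*, *S100a13* and *S100a16* were above 0 by at most 0.037. *S100a3* moved little, from -0.28, and here too its value cannot be read as corrected at its coding length. Without siControl batch 1 replicate 1 the median was -0.08, and *S100a3* turned to 0.049. Leaving out the library labelled siSbsn batch 1 replicate 1 gave a median of -0.32. An exact permutation test of each gene, two-sided, with treatment permuted within batches over 120 arrangements, gave p-values from 0.1 for *S100a4* to 0.6 for *S100a3*, where the smallest possible p was 0.0167.

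*S100a10* encodes the partner of annexin A2, a member of the family that has lost calcium binding in its loops and stays in the open form. Its level was 620 and 616 CPM without siRNA, 1510 and 814 CPM in siControl and 609 and 554 CPM in siSbsn of batch 1, and at 703, 729 and 952 CPM in siControl and 707, 789 and 735 CPM in siSbsn of batch 2. Both siSbsn libraries of batch 1 lay below both siControl libraries, as for 25.9% of the loci tested, and the groups of batch 2 overlapped. In batch 1 alone the siSbsn against siControl difference was -1.04 (standard error 0.31, edgeR q = 0.309), and in batch 2 alone it was -0.087 (standard error 0.10, edgeR q = 0.744). The difference between these effects, an interaction of batch and treatment, was 0.92 (standard error 0.33, edgeR q = 0.283) and did not pass the test. Without siControl batch 1 replicate 1 the batch 1 difference was -0.49.

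*S100a4*, whose protein binds the heavy chain of nonmuscle myosin IIA, was the gene with the largest siSbsn difference in batch 2. Its level was 66.2 and 42.2 CPM without siRNA, 90.2 and 54.6 CPM in siControl and 65.4 and 34.4 CPM in siSbsn of batch 1, and at 24.8, 25.2 and 30.7 CPM in siControl and 19.5, 21.9 and 23.4 CPM in siSbsn of batch 2. All 3 siSbsn libraries of batch 2 lay below all 3 siControl libraries, as for 9.19% of the loci tested, and *S100a4* was the only S100 gene for which this held. The batch 2 difference was -0.31 (standard error 0.097, edgeR q = 0.437), it was -0.18 with the length trend removed, and leaving out each library in turn gave -0.36 to -0.22. In batch 1 the siControl and siSbsn libraries overlapped, with a difference of -0.58 (standard error 0.40, edgeR q = 0.436).

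Within batch 2, where the *Sbsn* knockdown was seen in every siSbsn library, none of the 10 genes was called. The called share was 0.00774% of 12924 loci, which was *Sbsn* itself at -1.64 (standard error 0.10, edgeR q = 0.00056). The 10 log2-fold changes ranged from -0.31 to -0.0063 with a median of -0.07, and *S100a4* was the gene with an unadjusted p under 0.05. *S100a8* was at 2.63 ± 0.473 CPM in siControl and 2.55 ± 0.407 CPM in siSbsn (SD, n = 3 each). *S100a9* was at 5.58 ± 1.03 CPM and 5.24 ± 0.464 CPM (SD, n = 3 each). Standard errors of these log2-fold changes ranged from 0.082 to 0.18.

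In batch 1 alone all 10 genes were below 0 for siSbsn against siControl, from -1.04 to -0.51 with a median of -0.68, and none was called, as for 0% of 13176 loci. Of all these loci 6655 were below 0. Loci with a longest transcript of up to 1127 bases had a median of -0.65, and 87.9% of them were below 0. At an unadjusted p under 0.05 were 2077 loci, *S100a10* and *S100a8* among them. DESeq2 called 137 loci higher and 31 lower, without any of the 10 S100 genes. In these 2 genes both siSbsn libraries were below both siControl libraries, which held for 25.9% of loci. siControl against no siRNA, which shares the siControl libraries, gave log2-fold changes from 0.46 for *S100a4* to 0.95 for *S100a10* with a median of 0.77. All 10 were above 0, against 50.2% of loci. Loci of up to 1127 bases had a median of 0.71 in this comparison, and 11.1% of them were below 0. edgeR called 0% of loci, although 2116 were below an unadjusted p of 0.05. In simulated data this comparison found only 6 of 100 planted log2-fold changes of size 1. Its lack of calls therefore cannot be read as an absence of changes of the size seen in the S100 genes. The Wald test of DESeq2 gave 26 lower calls, none of the 10 S100 genes. siSbsn against no siRNA gave -0.15 for *S100a8* to 0.22 for *S100a3* with a median of 0.068, again with 0% of loci called, 23 at an unadjusted p under 0.05 and 0 called by DESeq2. The interaction was above 0 for all 10 genes, from 0.24 to 0.92 with a median of 0.54, and was called by edgeR for none of them and for 0% of loci, with 1945 loci at an unadjusted p under 0.05. It was below 0 for 6690 of all 12857 loci. Among loci of up to 1127 bases the interaction had a median of 0.49 and was below 0 for 16%. DESeq2 called 52 loci higher and 156 lower for it and no S100 gene.

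**Figure D4:**
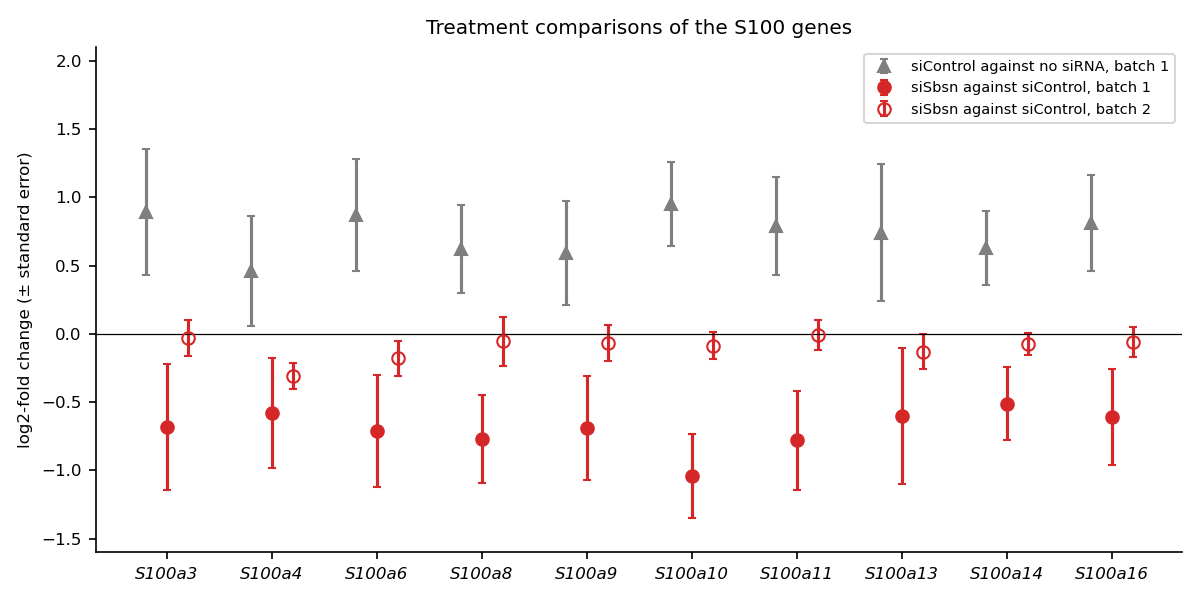
Log2-fold changes with standard errors from edgeR for siControl against no siRNA in batch 1 (triangles), siSbsn against siControl in batch 1 (filled circles) and siSbsn against siControl in batch 2 (open circles). The batch 1 comparisons share the siControl libraries and lie at 0.46 to 0.95 and -1.04 to -0.51, and the batch 2 values lie between -0.31 and -0.0063.

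These batch 1 values turned on single siControl libraries. Without siControl batch 1 replicate 1, the median of siSbsn against siControl in batch 1 was -0.10, that of siControl against no siRNA was 0.14 and that of the interaction was -0.035. Without siControl batch 1 replicate 2, replicate 1 was the siControl library of batch 1, and its spread was taken from the other groups. The medians were then -1.12 for siSbsn against siControl in batch 1, 1.22 for siControl against no siRNA and 0.93 for the interaction. With 1 siControl library in batch 1, calls of S100 genes in these fits are not read. The median in batch 1 was -0.99 when the library labelled siSbsn batch 1 replicate 1 was left out and -0.47 when siSbsn batch 1 replicate 2 was left out, with no S100 gene called in either.

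In the other 6 genes and *S100a9*, siControl and siSbsn libraries overlapped in both batches. *S100a6*, the gene of calcyclin, ranged from 506 CPM in siSbsn batch 2 replicate 4 to 1948 CPM, and *S100a11*, whose protein binds annexin A1, from 591 to 1896 CPM. In batch 2, *S100a11* was at 654 ± 95.9 CPM in siControl and 648 ± 78 CPM in siSbsn (SD, n = 3 each). *S100a14* and *S100a16*, neighbours that encode epithelial S100 proteins, ranged from 364 to 879 CPM and from 272 to 1190 CPM. *S100a16* was at 291, 272 and 381 CPM in siControl and 291, 305 and 304 CPM in siSbsn of batch 2. *S100a3*, best known from the hair cuticle, had 194 to 665 reads and 5.04 to 24 CPM, and *S100a13*, which takes part in the release of FGF1 and interleukin 1 alpha without a signal peptide, had 86 to 197 reads and 2.44 to 7.1 CPM. For *S100a13* the highest library was 2.91 times the lowest, and for *S100a14* 2.41 times, against 11 times for *S100a9* and 7.84 times for *S100a8*.

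**Figure D5:**
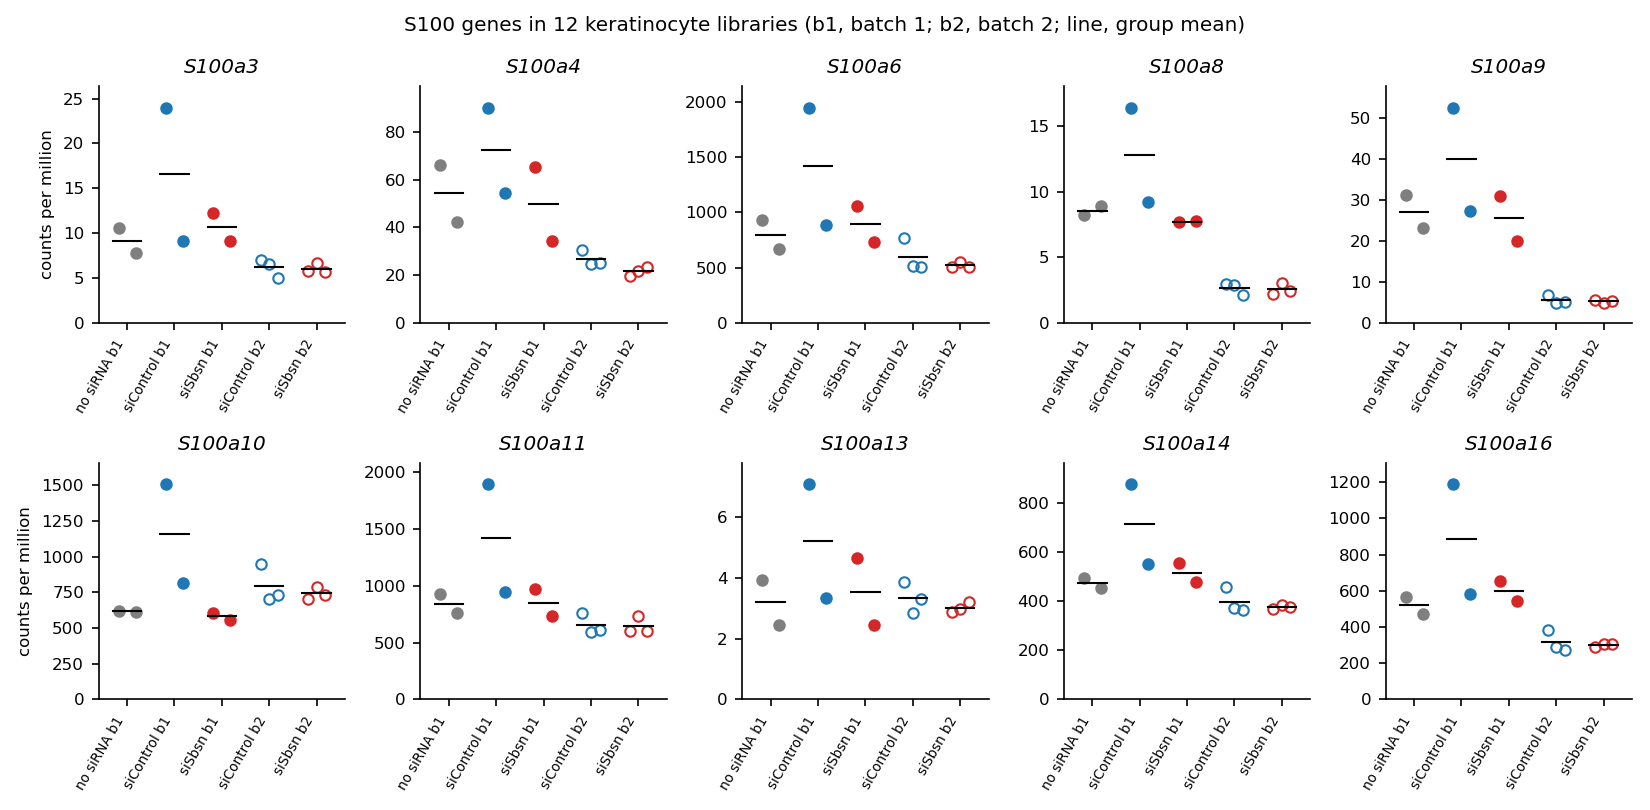
CPM of the 10 S100 genes in the 12 libraries, one panel per gene with a linear axis from 0, by condition and batch (b1 filled, b2 open), with the group mean as a line. siControl batch 1 replicate 1 is the highest point in every panel, and the batch 2 points of *S100a8*, *S100a9*, *S100a3*, *S100a4* and *S100a16* lie below all batch 1 points.

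The partners of the S100 proteins were read from a list of 16 genes, of which 15 were tested. siSbsn against siControl over both batches called none of them (0% of all loci were called), with a median of -0.0041. Batch 2 against batch 1 called 7 lower and 1 higher, where 21.3% of all loci were called lower and 16.4% higher. *Anxa1*, the partner of S100A11, was at -1.34 and *Anxa2*, the partner of S100A10, at -0.67 (edgeR q = 8.07e-06 and 0.00278). In this fit *Anxa2* was called lower in batch 2 while *S100a10* was not. With the length trend removed *Anxa1* was at -1.09, *Anxa2* at -0.50, the size of the call threshold, and *S100a10* at 0.36. *Ahnak*, the gene of a giant scaffold protein that the S100A10 and annexin A2 complex binds, was the one called higher at 0.64 (edgeR q = 0.0379), and it was at -0.16 with the length trend removed. *Fgf1* and *Il1a*, cargoes linked to S100A13, were at -2.61 and -1.40 (edgeR q = 1.15e-05 and 0.004). *Cd36*, a fatty acid receptor that binds the S100A8 and S100A9 complex, was at -1.78, *Bsg*, the gene of basigin, a receptor of S100A9, at -0.52 and *Anxa6* at -0.51 (edgeR q = 0.00124, 0.00258 and 0.00983). The last 2 were at -0.24 and -0.37 with the length trend removed. *Cd36* was near the floor, with 6 to 51 reads a library and 0.151 to 1.19 CPM, and was too low to be tested in batch 2 alone.

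Several partners were not called in this batch comparison. *Myh9*, the myosin chain bound by S100A4, was at 0.28 (edgeR q = 0.072), and *Cacybp* and *Anxa11*, partners of S100A6, were at 0.025 and -0.18 (edgeR q = 0.827 and 0.122). The receptors of S100A8 and S100A9, *Tlr4* and *Ager*, were at 1.44 to 4.03 CPM and 0.265 to 0.72 CPM and were not called (-0.50 and 0.067, edgeR q = 0.0606 and 0.821). For siSbsn against siControl over both batches, *Il1a* was at -0.87 (standard error 0.31, edgeR q = 0.254), with 56.1 and 157 CPM in siControl and 26 and 45.9 CPM in siSbsn of batch 1 and with 22.3, 30.2 and 30.8 CPM against 18.4, 22.9 and 21.2 CPM in batch 2. In batch 1 both siSbsn libraries were below both siControl libraries, as for 25.9% of the loci tested. In batch 2 the groups overlapped, and the libraries without siRNA were at 45.1 and 127 CPM. *Fgf1* went the other way at 0.88 (standard error 0.22, edgeR q = 0.254), with 2.16 and 1.54 CPM in siControl, 5.21 and 2.94 CPM in siSbsn and 4.38 and 1.68 CPM without siRNA in batch 1. In batch 2 it was at 0.34, 0.403 and 0.386 CPM in siControl and 0.563, 0.553 and 0.55 CPM in siSbsn, from 12 to 29 reads a library. Its siSbsn libraries were above the siControl libraries in both batches, and neither gene passed the test. The share of all loci with siSbsn above siControl in both batches was not counted, and *Fgf1* was picked after its values were seen.

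Other S100 genes were low. Of *S100a1*, *S100a2*, *S100a5*, *S100a7a*, *S100b*, *S100g* and *S100z*, where *S100a2* was added after its row was seen, *S100a1* and *S100a7a* were tested over both batches. *S100a7a*, the mouse gene of the psoriasin family, was at 8.08 and 15 CPM without siRNA, 13.1 and 15.7 CPM in siControl and 7.27 and 9.28 CPM in siSbsn of batch 1, and at 3.68, 4.81 and 4.51 CPM in siControl and 2.99, 2.8 and 3.8 CPM in siSbsn of batch 2. Its siSbsn libraries were below both siControl libraries in batch 1, as for 25.9% of the loci tested, and overlapped with siControl in batch 2. It was called lower in batch 2 at -1.56 (edgeR q = 2.13e-05), and for siSbsn against siControl it was at -0.58 (standard error 0.14, edgeR q = 0.254, DESeq2 q = 0.0214) and at -0.37 with the length trend removed. *S100a1* was at 3.11 to 7.78 CPM and was called in neither comparison. *S100a5* and *S100z* had at most 1 read a library, *S100b* at most 7, *S100g* at most 13 and *S100a2* at most 24.

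The fused S100 proteins join an S100 domain to long repeats and serve in the cornified envelope and its keratin matrix. Of their 7 genes, 6 were tested, none was called for siSbsn against siControl over both batches (0% of all loci), and batch 2 against batch 1 called 2 higher and 2 lower, beside 16.4% and 21.3% of all loci. *Crnn*, the gene of cornulin, was lower in batch 2 at -1.22 and *Tchhl1* at -0.81, and *Flg2*, the gene of filaggrin 2, was higher at 0.83 and *Tchh*, the gene of trichohyalin, at 0.51 (edgeR q = 8.63e-05, 0.0204, 0.0368 and 0.0204). With the length trend removed *Flg2* was at -0.032 and *Tchh* at 0.30. In batch 1 *Flg* was at -2.59 for siControl against no siRNA (edgeR q = 0.308, DESeq2 q = 0.022). It was at 2.06 for siSbsn against siControl in batch 1 (edgeR q = 0.309, DESeq2 q = 0.0439) and at 0.53 in batch 2 (edgeR q = 0.601). The batch 1 levels were 14.1 and 25 CPM without siRNA, 1.12 and 5.23 CPM in siControl and 10.3 and 17 CPM in siSbsn. *Flg* was picked after its values were seen.

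By the shape of their profile over the 12 libraries, after centring within each batch, the loci most like *S100a8* were *Gm561*, *Gm5801* and *Timm17a*, with root mean square differences of 0.0717, 0.0788 and 0.0855 on the log2 scale. The loci most like *S100a9* were the joined row of *Ifi27l2a* and *Ifi27*, then *Mpst* and *Psmb10*, at 0.0885, 0.093 and 0.0934. The nearest S100 gene to *S100a9* was *S100a13* at 0.107, in rank 9, and the nearest to *S100a8* was *S100a14* at 0.146, in rank 751 of the 13562 loci. These libraries share depth and length effects, and the ranks are a description.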

How the data were processed

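According to the methods of the study and the labels, reads were aligned to mm10 with STAR 2.5.1b, and the authors deposited whole-number counts of uniquely aligned reads per gene of the UCSC KnownGene annotation, with no normalisation. The counts were tested with edgeR 4.0.16 (R 4.3.3), with TMM factors, loci passing filterByExpr and the quasi-likelihood test, with batch and treatment as terms. A locus was called at an absolute log2-fold change above 0.5 and a Benjamini-Hochberg q-value below 0.05, the threshold of the study, whose own DESeq2 Wald test was run as an alternative (DESeq2 1.42.0), beside limma-voom (limma 3.58.1), other size factors, no filter, all 12 libraries, a replicate block, a loess trend on gene length and each library left out. Standard errors were taken from the log2-fold change and the root of its F value. CPM used TMM-scaled library sizes, and log2 values a pseudocount of 0.5. Transcript lengths came from GENCODE vM21 and were known for 95.5% of loci tested. The length trend used the longest transcript of any type under each gene name, which for a member can differ from the coding transcript within its locus. The scripts were tested on simulated data. No pair of replicates agreed within sampling noise, with a chi-square per degree of freedom of at least 3.77. Comma-joined rows near members held at most 0.386% of their reads. The S100 genes and the partner, fused S100 and marker lists were chosen with earlier results of these data known. Genes named were all 10 members, *Sbsn*, the listed S100 genes, called partners and the partners of each member. Called fused genes, *Flg* and the 3 loci nearest *S100a8* and *S100a9* were also named. The values of the called fused genes, of *Il1a*, *Fgf1* and *Flg* for treatment and of single markers were chosen after they were seen. Of the marker lists, the fibroblast genes had 2 higher and 1 lower in batch 2 of 9 tested, the melanocyte genes 2 higher of 7, the Langerhans cell genes 2 lower of 2 tested with *Cd207* at 0 throughout, and no hair keratin passed the filter over both batches.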

Additional observations from a re-analysis of the deposited data

Results flagged for a closer look

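Among 68 groups of 5 libraries of 1 treatment, which join the 2 batches, 4 had a library far from the others by Dixon's ratio of gap to range, whose 95% critical value for 5 samples is 0.71, and chance gives about 1 in 20. None was of the 10 S100 genes. For *S100a1* in siControl the ratio was 0.735, from 7.78 CPM in siControl batch 1 replicate 1. For *Tchh* in siControl it was 0.791, from 77.4 CPM in the same library. For *Ahnak* in siSbsn it was 0.837, from 2595 CPM in the library labelled siSbsn batch 1 replicate 1, and for *Ager* in siSbsn it was 0.811, from 0.265 CPM in siSbsn batch 1 replicate 2.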

How the results depend on the processing

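For siSbsn against siControl over both batches, DESeq2 called 51 loci higher and 42 lower where edgeR called 0, and the other alternatives called 0. In batch 1 alone DESeq2 called 137 and 31, and leaving out a library gave 0 to 1137 higher and 0 to 1481 lower. In batch 2 alone DESeq2 called 1 and 6, the fit with the length trend removed called 2 and 2, and leaving out a library gave 0 to 5 higher and 1 to 5 lower. For the interaction DESeq2 called 52 and 156, and leaving out a library gave 0 to 1778 higher and 0 to 2620 lower. For siControl against no siRNA DESeq2 called 26 lower, and leaving out a library gave 0 to 1740 higher and 0 to 1473 lower. For siSbsn against no siRNA all fits called 0. The cause of these differences was not tested. The counts for batch 2 against batch 1 stayed within 1.5 times under all 17 alternatives.

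Removing the length trend turned the sign of siSbsn against siControl over both batches for *S100a9* (0.026), *S100a11* (0.037), *S100a13* (0.0091) and *S100a16* (0.02), and of batch 2 against batch 1 for *S100a10* (0.36) and *S100a13* (0.051). For siSbsn against siControl in batch 2 it turned *S100a8* (0.067), *S100a9* (0.066), *S100a10* (0.039), *S100a11* (0.12), *S100a14* (0.0093) and *S100a16* (0.053). For siControl against no siRNA it turned *S100a4* (-0.16), *S100a8* (-0.03) and *S100a9* (-0.065), and for siSbsn against no siRNA *S100a11* (-0.038). Leaving out a library turned *S100a3* over both batches (-0.40 to 0.049) and *S100a10* between batches (-0.26 to 0.20). In batch 2 and for the interaction, ranges were taken only for *S100a4*, *S100a8*, *S100a9* and *S100a10*. In batch 2, *S100a8* (-0.19 to 0.049), *S100a9* (-0.15 to 0.077) and *S100a10* (-0.16 to 0.048) turned. For the interaction, *S100a4* (-0.16 to 0.74) turned among these genes. Over all S100 genes, 5 interaction values were below 0 without siControl batch 1 replicate 1, with a lowest of -0.24. Without that library, siSbsn against siControl in batch 1 was below 0 for 7 S100 genes, with a highest of 0.21. With every library it was below 0 for all of them. In batch 2 their median ranged from -0.13 to 0.036.

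The conditions of batch 1 share the numbers 1 and 2, and no label says that a number marks a shared culture. Differences of number 1 minus number 2 correlated between conditions at 0.38 to 0.80 over 13562 loci, with only 2 numbers. The fit with a replicate block for batch 1 called 0 loci for siSbsn against siControl, 2304 higher and 2725 lower between batches, and the same 8 S100 genes lower in batch 2. The block changed no call of an S100 gene, with *S100a9* at -2.52 and *S100a10* at -0.096 between batches. *S100a13*, with 86 to 197 reads, and *S100a8*, with 83 to 455, are the members whose precision depth limits most.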
